A study of Mus musculus with 24 samples.

Results

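The cytochrome P450 genes of the mouse heart were taken as every gene of the deposited annotation whose symbol starts with Cyp and a digit, which gave 34 of the 20961 genes listed. No pseudogene symbol met that rule. Of the 34 genes, 30 passed the filter on low counts and were tested among 17203 genes. Cyp27b1, Cyp4x1, Cyp4f15 and Cyp2d10 did not pass it and are given as counts. Every gene of the table had counts in at least 13 of the 24 libraries, so P450 genes with fewer are not analysed here.

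Cytochrome P450 enzymes are heme proteins that insert an oxygen atom into lipids, sterols, retinoids, steroid hormones and foreign compounds, with electrons passed on by NADPH-cytochrome P450 reductase in the endoplasmic reticulum or by ferredoxin in mitochondria. The liver holds the highest levels of most of them. In heart and vessels the family is best known for turning arachidonic acid into epoxides, which the soluble epoxide hydrolase Ephx2 removes, and into hydroxylated products, and for clearing retinoic acid.

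The libraries were poly(A) RNA-seq of heart from 3 inbred strains with the genotype given as wild type: C57BL/6J, the reference laboratory strain, CAST/EiJ, a wild-derived strain, and NZO/HlLtJ, a strain that becomes obese. Females and males of each strain received a diet of 10% fat plus fiber or of 44% fat plus fiber, described in the protocol as a control diet and a diet high in fat and sugar. The diets began at 6 weeks of age, and hearts were taken at 15 weeks. Each of the 12 combinations of strain, sex and diet had 2 libraries, so a strain had 8, and a diet within a strain had 4. The labels do not say whether the 2 libraries of a group are separate animals, so p-values measure the spread between these libraries. NZO/HlLtJ libraries occur in only 2 of the 3 ranges of identifier numbers in the titles. Within each sex of NZO/HlLtJ, the 2 diets came from different ranges. In CAST/EiJ, the second libraries on 10% fat and those on 44% fat also came from different ranges. Diet and range cannot be told apart between those libraries.

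Library totals ran from 30205073 to 52254058 counts. All 8 cardiomyocyte markers were present, at a summed 51501 to 65540 CPM (normalised counts relative to the library total, scaled with edgeR's TMM factors). All 6 fibroblast markers were called higher in NZO/HlLtJ than in each other strain, at a summed 991 to 1292 CPM against 744 to 796 in C57BL/6J and 597 to 759 in CAST/EiJ. Skeletal muscle markers, of which 6 of 8 were listed, summed to 1148 to 3464 CPM in NZO/HlLtJ, 138 to 272 in C57BL/6J and 149 to 375 in CAST/EiJ. Hepatocyte markers, with 6 of 10 listed, stayed at a summed 3.05 to 18.0 CPM, and 3 of the 5 tested were called higher in CAST/EiJ than in C57BL/6J. The part of these markers in the strain differences below was not tested, and in bulk tissue fewer cells of a type and less RNA per cell cannot be told apart. A group of 7 libraries held airway genes, which are given with Cyp2f2.

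The 34 P450 genes together took 134 to 203 CPM of a library, or 0.0132 to 0.0200% of its counts. A mean of at least 1 CPM was reached by 19 genes, and 24 had counts in every library. Per kilobase of exon, Cyp4b1, a hydroxylase of short and medium chain fatty acids and of some foreign compounds, had the highest mean level, 8.86 CPM per kb, and was above the next gene in 21 of 24 libraries. Cyp27a1, the mitochondrial sterol 27-hydroxylase, followed at 5.83 CPM per kb. Next came Cyp2d22 at 4.40, Cyp2u1 at 3.95, Cyp2e1 at 3.64 and Cyp20a1 at 3.22 CPM per kb.

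Neighbours in this order were not cleanly separated. Cyp27a1 was above Cyp2d22 in 16 libraries, Cyp2d22 was above Cyp2u1 in 15, and Cyp2e1 was above Cyp20a1 in 12. Cyp26b1 at 2.61, Cyp2f2 at 2.37, Cyp1b1 at 2.18 and Cyp51 at 2.16 CPM per kb formed a run in which Cyp2f2 was above Cyp1b1 in only 6 libraries. The lowest was Cyp4x1 at 0.0107 CPM per kb. With the length of the longest transcript in place of all exons, Cyp4f13 moved from rank 12 at 1.45 CPM per kb to rank 6 at 3.67.

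**Figure D1:**
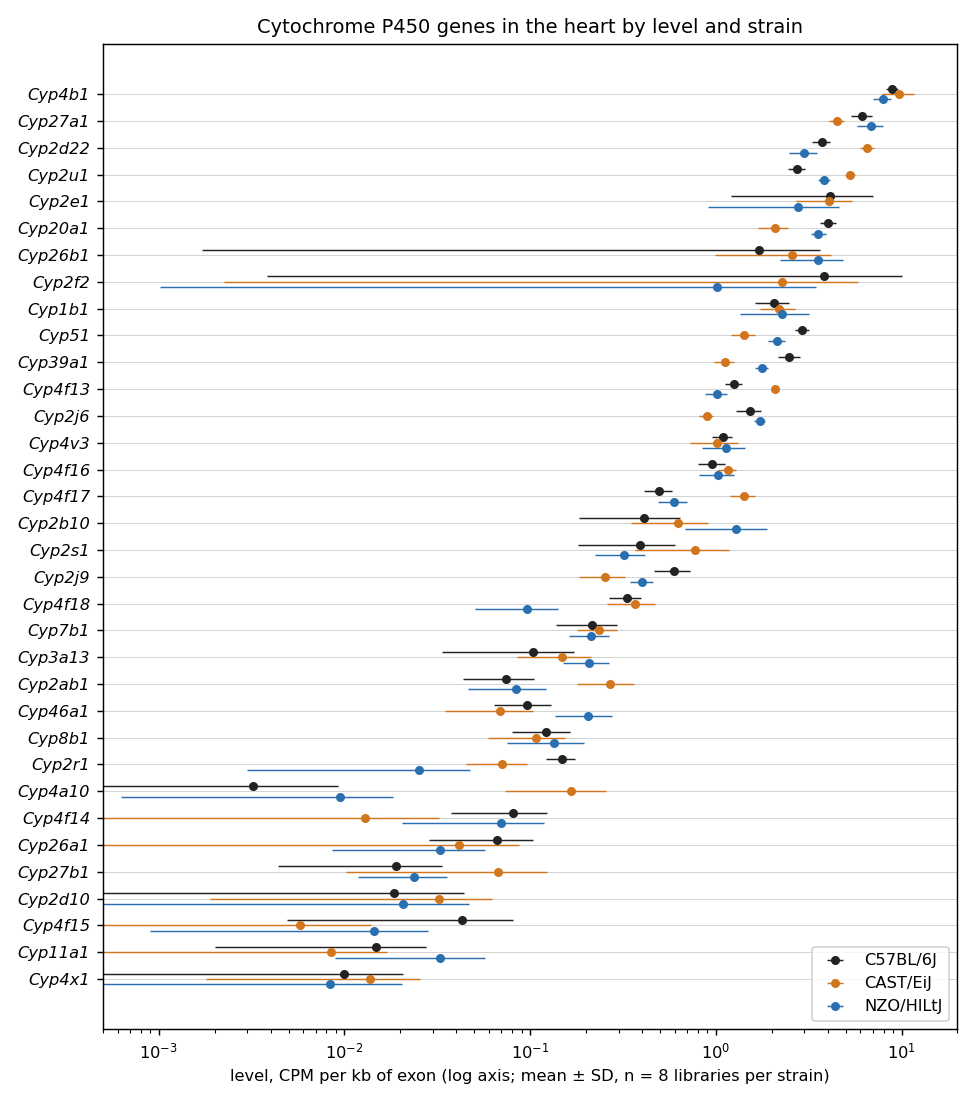
Mean level ± SD of each of the 34 P450 genes in CPM per kb of exon on a log axis, with 1 point per strain (8 libraries each). Cyp4b1 lies highest at a mean of 8.86 CPM per kb over all libraries, and bars that run off or close to the left edge reach 0 or below.

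The first comparison asked how the strains differed, averaged over sex and diet with equal weight. In CAST/EiJ against C57BL/6J, 7 of the 30 genes tested were higher and 8 were lower (edgeR quasi-likelihood test, adjusted p under 0.05), which is 50% of the P450 genes beside 58.8% of all genes tested (29.1% higher and 29.7% lower). In NZO/HlLtJ against C57BL/6J, 5 were higher and 8 lower, or 43.3% beside 35.5% of all genes (17.9% higher and 17.6% lower). In NZO/HlLtJ against CAST/EiJ, 10 were higher and 10 lower, or 66.7% beside 60.3% (30.5% higher and 29.8% lower). These shares lie near the background, and calls went in both directions.

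The median absolute log2 difference of the tested P450 genes was 0.75 in CAST/EiJ against C57BL/6J, beside 0.31 over all genes, 0.38 beside 0.18 in NZO/HlLtJ against C57BL/6J, and 0.73 beside 0.31 in NZO/HlLtJ against CAST/EiJ. Of the 30 genes, 11 had a mean under 1 CPM. The libraries of the strains did not overlap for 11, 5 and 13 of the 30 genes in these comparisons, against 27.0%, 12.2% and 26.8% of all genes. A gene that passed the filter only through the strain where it is high had to differ, so these counts are a description.

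Called in all 3 strain comparisons were 7 genes, in 2 of them 12, and in a single one 3. The other 8, which were Cyp1b1, Cyp26a1, Cyp2e1, Cyp2f2, Cyp4f16, Cyp4v3, Cyp7b1 and Cyp8b1, were called in none by this fit. Of these 8, Cyp4f16 was called under other settings, and Cyp26a1, Cyp2e1 and Cyp4v3 were each called in 1 comparison when 1 library was left out. By role, the fatty acid epoxygenases and hydroxylases had 4 higher and 3 lower of 11 tested in CAST/EiJ against C57BL/6J, and the bile acid and oxysterol enzymes had 2 lower and none higher of 5. The drug-metabolizing family 2 genes had 3 higher and none lower of 6. Of all genes, 29.1% were higher and 29.7% lower in that comparison. In NZO/HlLtJ against C57BL/6J the same 3 roles had 1 higher and 4 lower, 1 and 1, and 1 and 1, where 17.9% of all genes were higher and 17.6% lower. The 3 comparisons share their libraries, so their counts are not independent of each other. The share of all genes called in 1, 2 or 3 comparisons was not computed, so those counts are a description.

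**Figure D2:**
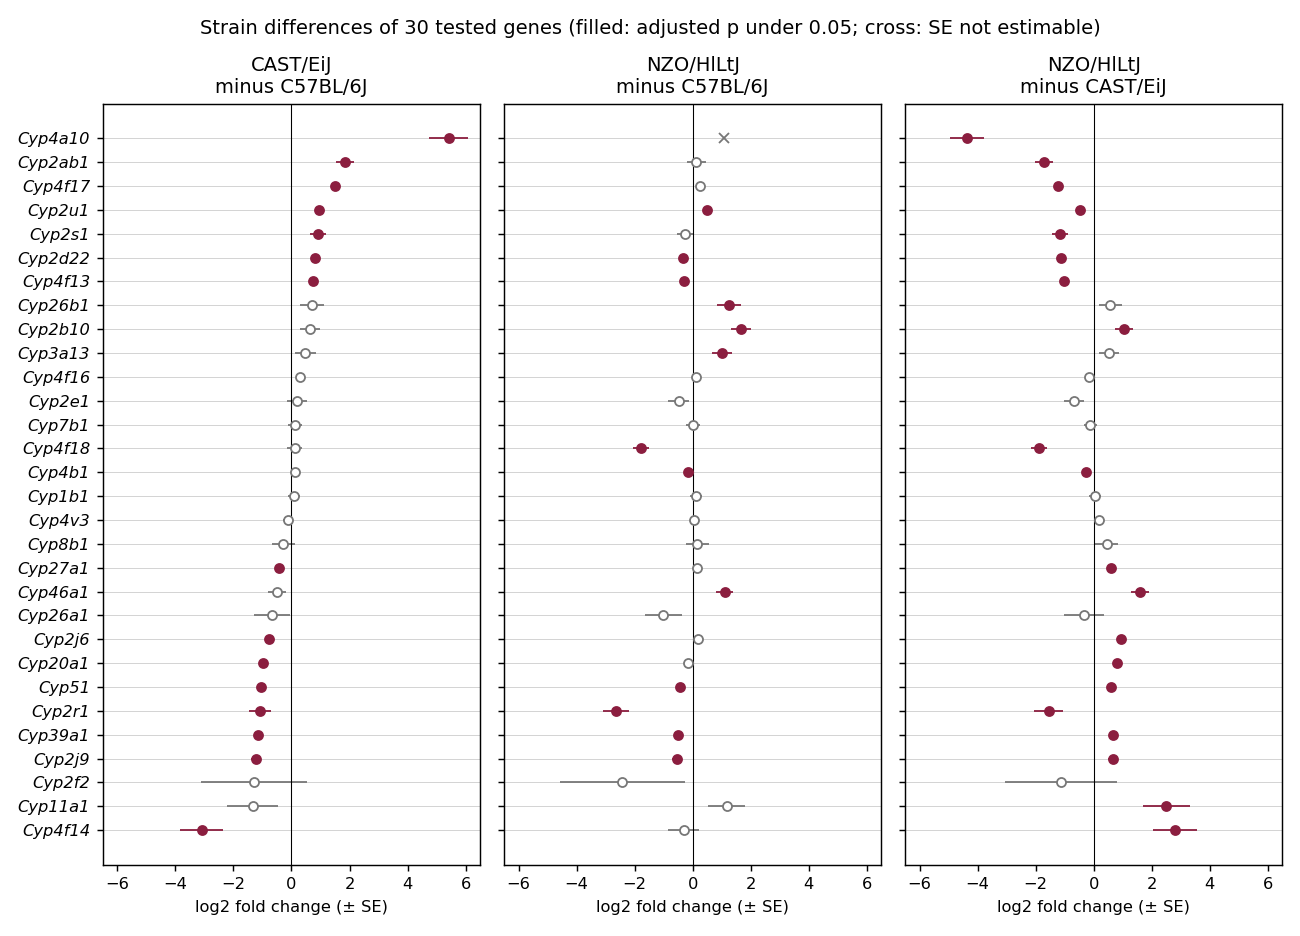
Log2 difference with its standard error for the tested P450 genes in the 3 strain comparisons, ordered by the difference of CAST/EiJ from C57BL/6J, with called genes filled and a cross where the standard error could not be estimated. The 7 called genes at the top left lie above 0 and the 8 called at the bottom below it.

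The genes at 1 CPM or more whose 8 CAST/EiJ libraries all lay outside both other strains were Cyp51, Cyp20a1, Cyp39a1, Cyp2j6, Cyp2u1, Cyp2d22, Cyp4f13 and Cyp4f17. RefSeq promoter windows of GRCm38.p6, which run from 250 bases before to 50 after the start site, were matched for 27 of the 34 P450 genes, and for 4 of these 8. They are shown so that the starts of the genes that separated CAST/EiJ can be read beside the values. The letters are the reference sequence, which is that of C57BL/6J, written 5' to 3' on the strand of the gene, and capitals mark a match to a searched motif on either strand.
Cyp51: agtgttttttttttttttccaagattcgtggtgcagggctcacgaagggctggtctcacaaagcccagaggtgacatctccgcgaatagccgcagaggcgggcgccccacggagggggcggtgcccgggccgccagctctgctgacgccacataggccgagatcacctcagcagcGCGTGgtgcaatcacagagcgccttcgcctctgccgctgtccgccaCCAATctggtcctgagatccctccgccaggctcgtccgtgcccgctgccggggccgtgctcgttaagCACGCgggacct
Cyp20a1: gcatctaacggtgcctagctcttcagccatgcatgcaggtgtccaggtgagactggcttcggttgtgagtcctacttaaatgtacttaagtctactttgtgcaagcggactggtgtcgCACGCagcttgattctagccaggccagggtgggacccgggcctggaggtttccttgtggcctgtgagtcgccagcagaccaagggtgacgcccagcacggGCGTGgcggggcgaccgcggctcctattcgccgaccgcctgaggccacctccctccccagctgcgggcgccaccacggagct
Cyp2j6: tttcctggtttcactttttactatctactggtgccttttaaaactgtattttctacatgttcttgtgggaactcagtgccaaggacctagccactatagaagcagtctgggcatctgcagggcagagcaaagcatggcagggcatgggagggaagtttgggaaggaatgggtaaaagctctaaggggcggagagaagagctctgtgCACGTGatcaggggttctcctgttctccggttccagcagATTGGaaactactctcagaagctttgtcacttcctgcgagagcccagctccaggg
Cyp4f13: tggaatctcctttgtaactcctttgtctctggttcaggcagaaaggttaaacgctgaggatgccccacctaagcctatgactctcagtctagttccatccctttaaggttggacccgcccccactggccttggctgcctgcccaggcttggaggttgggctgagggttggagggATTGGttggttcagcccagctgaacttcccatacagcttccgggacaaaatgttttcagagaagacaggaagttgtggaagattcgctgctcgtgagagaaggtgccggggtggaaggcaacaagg

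These windows are chr5:4104648-4104947 on the minus strand for Cyp51, chr1:60343050-60343349 on the plus strand for Cyp20a1, chr4:96553602-96553901 on the minus strand for Cyp2j6 and chr17:32947312-32947611 on the minus strand for Cyp4f13. Counting the start site as 0, the Cyp51 window held the core of the xenobiotic response element, GCGTG, at -75 and 39 and a CCAAT box, CCAAT, at -29. The Cyp20a1 window held GCGTG at -132 and -32. Cyp2j6 had an E-box, CACGTG, at -44 and CCAAT at -5, and Cyp4f13 had CCAAT at -76.

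Over all 27 windows, GCGTG was in 10 or 37.0%, against 32.4% of the 32851 RefSeq promoter windows of the same length. CCAAT was in 18 or 66.7%, against 37.4%. The TATA box TATAAA was in 5 or 18.5% against 13.6%, and CACGTG in 2 or 7.41% against 7.15%. The nuclear receptor half-site AGGTCA was in 1, that of Cyp2f2, against 16.3% of all windows. The sterol regulatory element TCACNCCAC was in 1, that of Cyp2b10, against 1.24%. Matches describe the reference letters only.

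Cyp51 encodes lanosterol 14-alpha-demethylase, the P450 of cholesterol synthesis, and lies at chr5:4081145-4104746 on the minus strand. Its CPM had a minimum of 11.1, a median of 12.9 and a maximum of 14.5 in C57BL/6J, 5.15, 6.26 and 8.0 in CAST/EiJ, and 8.30, 9.13 and 11 in NZO/HlLtJ. The 3 strains did not overlap, with C57BL/6J highest and CAST/EiJ lowest. The log2 difference was -1.05 ± 0.060 (SE) for CAST/EiJ against C57BL/6J (edgeR adjusted p = 2.24e-11), -0.45 ± 0.059 for NZO/HlLtJ against C57BL/6J (adjusted p = 5.69e-06) and 0.60 ± 0.060 for NZO/HlLtJ against CAST/EiJ (adjusted p = 7.24e-08). Its exons share 166 bases with Akap9.

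Of the other 17 genes of the sterol pathway around Cyp51, 3 were higher and 7 lower in CAST/EiJ than in C57BL/6J. Of all genes, 29.1% were higher and 29.7% lower in that comparison, or 58.8% together. The median log2 difference of the 17 genes was -0.10. Dhcr7, the last reductase of the pathway, was lower (log2 difference -1.20, edgeR adjusted p = 3.88e-07), as was Hsd17b7 (-1.56, adjusted p = 6.24e-10). Lss, which makes lanosterol, was higher (1.72, adjusted p = 9.24e-11), as was squalene synthase Fdft1 (0.71, adjusted p = 3.74e-09). The list did not move one way, and Lss and Cyp51, neighbours in the pathway, differed in opposite directions. In NZO/HlLtJ against C57BL/6J, 17.9% of all genes were higher and 17.6% lower. There, 2 genes of the list were higher and 1 was lower, with a median of 0.03. That 1 was Hsd17b7, at 22.0 CPM in C57BL/6J, 7.39 in CAST/EiJ and 2.43 in NZO/HlLtJ.

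Among the bile acid and oxysterol enzymes, Cyp39a1, the 24-hydroxycholesterol 7-alpha-hydroxylase at chr17:43667425-43751431, followed the same order as Cyp51. Its minimum, median and maximum were 6.63, 7.33 and 9.88 CPM in C57BL/6J, 4.62, 5.49 and 5.92 in NZO/HlLtJ and 2.84, 3.53 and 3.93 in CAST/EiJ. No strain overlapped another. The log2 difference was -1.15 ± 0.091 for CAST/EiJ against C57BL/6J (edgeR adjusted p = 2.64e-09) and -0.49 ± 0.089 for NZO/HlLtJ against C57BL/6J (adjusted p = 0.000245).

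Cyp27a1, at chr1:74713574-74737892, was also lowest in CAST/EiJ, at 9.77 ± 0.914 CPM (SD, n = 8) beside 13.3 ± 1.74 in C57BL/6J and 14.9 ± 2.43 in NZO/HlLtJ. Its CAST/EiJ libraries, 8.37 to 11.1 CPM, lay below all of NZO/HlLtJ, 11.7 to 18.4, and overlapped C57BL/6J, 10.5 to 15.7. Both differences from CAST/EiJ were called (log2 difference -0.44 ± 0.065, adjusted p = 1.15e-05, and 0.60 ± 0.065, adjusted p = 2.04e-07). Cyp46a1, the cholesterol 24-hydroxylase known from neurons, was highest in NZO/HlLtJ at 0.678 ± 0.227 CPM (SD, n = 8) beside 0.318 in C57BL/6J and 0.226 in CAST/EiJ. Its difference from C57BL/6J was 1.10 ± 0.29 (edgeR adjusted p = 0.00645). Cyp7b1 and Cyp8b1, the oxysterol 7-alpha-hydroxylase and the sterol 12-alpha-hydroxylase, were at means of 0.209 to 0.51 CPM and were not called.

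The fatty acid and eicosanoid genes held the most members. Cyp2j6 and Cyp2j9, members of the Cyp2j cluster, lie side by side on chromosome 4 within 75.4 kb, and both were lowest in CAST/EiJ. Cyp2j6 had a minimum, median and maximum of 4.56, 5.34 and 7.40 CPM in C57BL/6J, 2.88, 3.28 and 3.70 in CAST/EiJ and 5.49, 6.30 and 6.61 in NZO/HlLtJ. CAST/EiJ lay below both other strains, which overlapped each other. The log2 difference was -0.77 ± 0.076 against C57BL/6J (edgeR adjusted p = 6.27e-08), and NZO/HlLtJ was 0.95 ± 0.076 above CAST/EiJ (adjusted p = 2.78e-09).

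For Cyp2j9 the means were 1.99 ± 0.431 CPM in C57BL/6J, 0.846 ± 0.239 in CAST/EiJ and 1.34 ± 0.189 in NZO/HlLtJ (SD, n = 8). The ranges of the strains overlapped, at 1.17 to 2.39, 0.617 to 1.29 and 0.952 to 1.53 CPM. CAST/EiJ was 1.22 ± 0.18 below C57BL/6J on the log2 scale (difference -1.22, edgeR adjusted p = 7.65e-06). The difference of -0.55 ± 0.17 in NZO/HlLtJ against C57BL/6J (adjusted p = 0.0161) was lost with the identifier range as a block (-0.32, adjusted p = 0.146) and without C57BL/6J male 44% fat replicate 1 (adjusted p = 0.0589).

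Cyp2u1, a fatty acid hydroxylase at chr3:131288441-131303227, went the other way. Its minimum, median and maximum were 12.4, 14.7 and 15.9 CPM in C57BL/6J, 25.2, 27.8 and 29.6 in CAST/EiJ and 17.3, 20.2 and 21.8 in NZO/HlLtJ. The 3 strains did not overlap, and CAST/EiJ was highest. The log2 difference was 0.95 ± 0.058 for CAST/EiJ against C57BL/6J (edgeR adjusted p = 6.08e-11) and 0.49 ± 0.058 for NZO/HlLtJ against C57BL/6J (adjusted p = 1.86e-06). Of its exon bases, 548 overlap the antisense gene 4930534D22Rik. Reads of the pair cannot be told apart if strand was not used, and the use of strand is not given in the sources used here.

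A run of 5 Cyp4f genes, leukotriene and fatty acid omega-hydroxylases, lies on chr17:32506462-32947402, a span of 441 kb, and its members did not move together. Cyp4f17 rose to a minimum, median and maximum of 3.76, 4.29 and 5.64 CPM in CAST/EiJ, beside 1.28, 1.58 and 2.07 in C57BL/6J and 1.39, 1.93 and 2.36 in NZO/HlLtJ. Cyp4f13 was at 8.61, 9.26 and 9.85 CPM in CAST/EiJ, 4.54, 5.54 and 6.22 in C57BL/6J and 3.65, 4.55 and 5.30 in NZO/HlLtJ. In both genes every CAST/EiJ library exceeded every library of the other strains. CAST/EiJ exceeded C57BL/6J by 1.5 ± 0.14 on the log2 scale for Cyp4f17 (edgeR adjusted p = 2.47e-08) and by 0.74 ± 0.080 for Cyp4f13 (adjusted p = 2.11e-07). NZO/HlLtJ was below C57BL/6J for Cyp4f13 as well (-0.31 ± 0.082, adjusted p = 0.00653).

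The neighbour Cyp4f14 fell in CAST/EiJ. It had 55 counts over the 8 C57BL/6J libraries, 9 over those of CAST/EiJ, 4 of which were at 0, and 54 over those of NZO/HlLtJ. The ratio of CAST/EiJ to C57BL/6J was 0.146 (exact 95% interval 0.0635 to 0.298, counting error only), and the fitted log2 difference was -3.09 ± 0.73 (edgeR adjusted p = 0.00147). Cyp4f15, which did not pass the filter, had 29, 4 and 11 counts in C57BL/6J, CAST/EiJ and NZO/HlLtJ. Without a filter it was called in CAST/EiJ against C57BL/6J (-3.21, edgeR adjusted p = 0.00772). Cyp4f16, at 2.94, 3.57 and 3.17 CPM, lay at the threshold in CAST/EiJ against C57BL/6J (0.29, edgeR adjusted p = 0.0536). It was called with limma-voom (0.31, adjusted p = 0.0413), with the identifier range as a block (adjusted p = 0.0365), with only these strains fitted (adjusted p = 0.0315), with additive terms (adjusted p = 0.0353) and in 7 of the 24 fits that each left out a library. Of its 100-base stretches, 5.95% occur in Cyp4f37 or Cyp4f17.

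Outside the cluster, Cyp4f18, a leukotriene B4 hydroxylase of myeloid cells on chromosome 8, was low in NZO/HlLtJ alone. Its minimum, median and maximum were 0.383, 0.635 and 0.747 CPM in C57BL/6J, 0.443, 0.660 and 0.976 in CAST/EiJ and 0.0799, 0.193 and 0.275 in NZO/HlLtJ. No NZO/HlLtJ library reached either other strain, and the log2 difference was -1.77 ± 0.28 against C57BL/6J (edgeR adjusted p = 6.79e-05) and -1.88 ± 0.28 against CAST/EiJ (adjusted p = 1.20e-05). The 6 macrophage markers summed to 114 to 157 CPM in NZO/HlLtJ and 128 to 165 in C57BL/6J, and 3 of them were called lower in NZO/HlLtJ, with a median of -0.15. Their sum in CAST/EiJ was 121 to 146 CPM. The part of macrophages in the Cyp4f18 differences was not tested. Of the Cyp4f18 exon bases, 181 overlap Zfp961.

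Cyp4a10, a fatty acid omega-hydroxylase and a known PPAR-alpha target, was near absent outside CAST/EiJ. It had 2 counts over the 8 C57BL/6J libraries with 6 at 0, 6 counts over NZO/HlLtJ with 3 at 0, and 116 counts over CAST/EiJ with none at 0. The CAST/EiJ libraries spanned 0.0982 to 0.660 CPM. The ratio of CAST/EiJ to C57BL/6J was 51.8 (exact 95% interval 14.0 to 433.0) and to NZO/HlLtJ 18.5 (8.26 to 51.5), counting error only. It passed the filter through CAST/EiJ alone and is 1 of the 7 genes counted as higher there, so its test is not given. Of its 100-base stretches, 12.2% occur in Cyp4a31 or Cyp4a32, so part of its reads may have been split with them. Ppara, the gene of PPAR-alpha, was lower in CAST/EiJ than in C57BL/6J (log2 difference -0.60, edgeR adjusted p = 3.51e-06). The part of this receptor in the Cyp4a10 difference was not tested.

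Cyp4b1, the most abundant per length, differed little between strains, at 20.1 ± 1.54 CPM in C57BL/6J, 22.0 ± 4.31 in CAST/EiJ and 17.9 ± 2.05 in NZO/HlLtJ (SD, n = 8). It was lower in NZO/HlLtJ than in CAST/EiJ (log2 difference -0.28 ± 0.064, edgeR adjusted p = 0.000857). The difference of -0.18 from C57BL/6J (adjusted p = 0.0384) was lost with the identifier range as a block (adjusted p = 0.117) and without any 1 of 8 libraries (adjusted p up to 0.108). These were C57BL/6J female 10% fat replicate 1, female 44% fat replicate 2 and male 10% and 44% fat replicate 1, and NZO/HlLtJ female 10% fat replicate 2, female 44% fat replicate 1, male 10% fat replicate 2 and male 44% fat replicate 1. Cyp4v3, a fatty acid omega-hydroxylase, was at 4.17, 3.90 and 4.32 CPM and was not called.

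**Figure D3:**
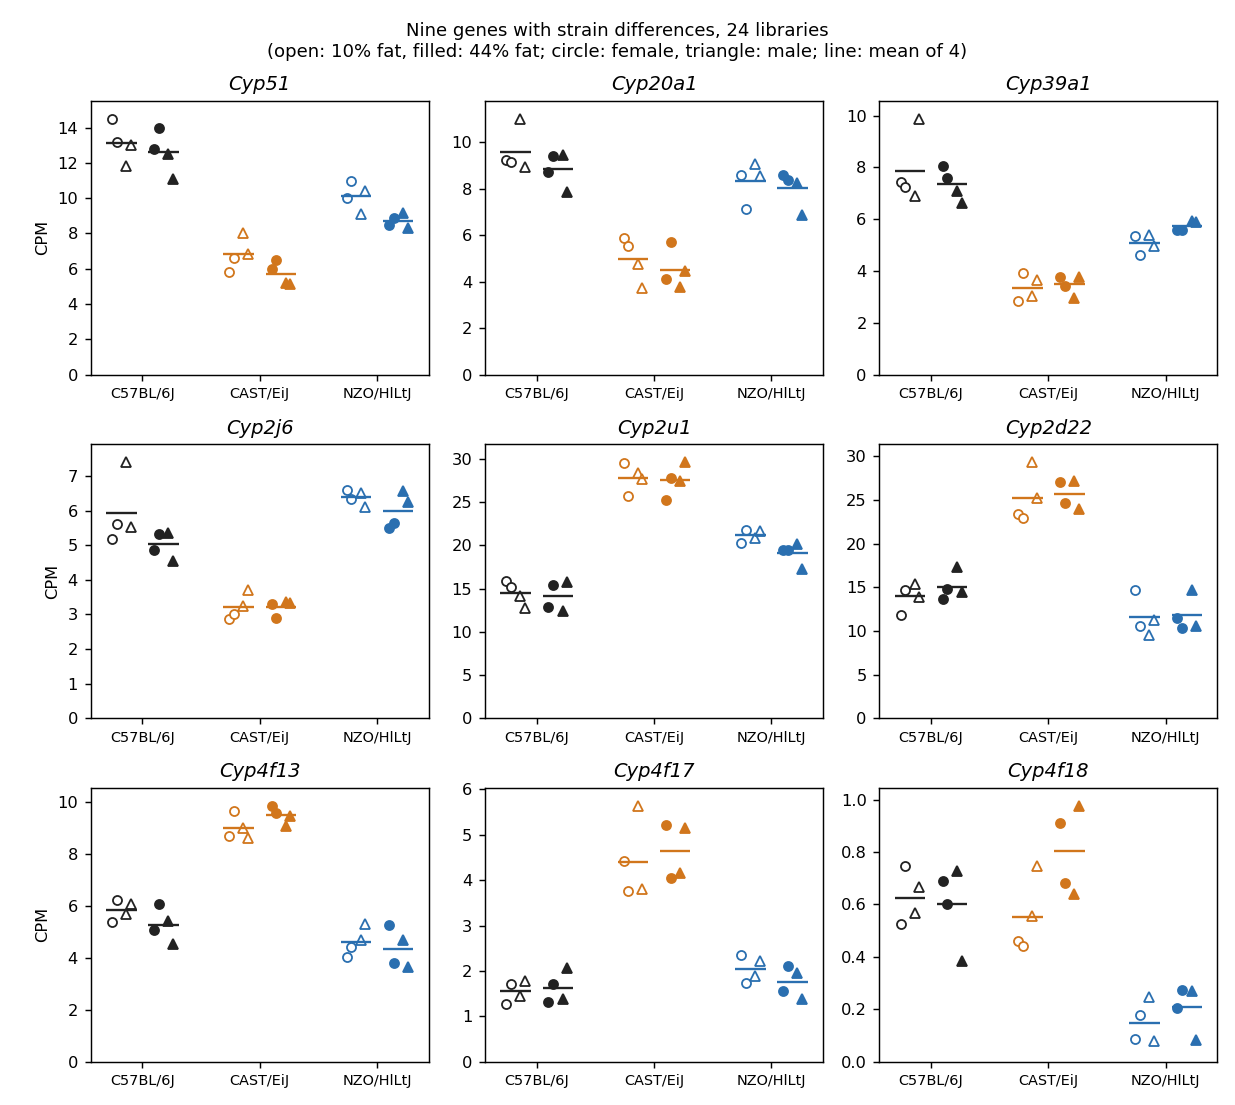
CPM of 9 P450 genes in each library by strain and diet (open 10% fat, filled 44%, circles female, triangles male), with the mean of 4 libraries as a line. In CAST/EiJ, Cyp51, Cyp20a1, Cyp39a1 and Cyp2j6 lie below the other strains and Cyp2u1, Cyp2d22, Cyp4f13 and Cyp4f17 above them, while Cyp4f18 is low in NZO/HlLtJ.

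Cyp26b1 and Cyp26a1 clear retinoic acid. Cyp26b1 varied widely within strains, with a minimum, median and maximum of 3.19, 5.05 and 33.9 CPM in C57BL/6J, 6.59, 10.8 and 29.1 in CAST/EiJ and 7.95, 17.9 and 30.0 in NZO/HlLtJ. All 3 strains overlapped. The log2 difference of 1.25 ± 0.41 for NZO/HlLtJ against C57BL/6J (edgeR adjusted p = 0.0314) was lost when only these strains were fitted (adjusted p = 0.0654) and without any 1 of 8 libraries (adjusted p up to 0.0876). These were C57BL/6J female 10% fat replicate 2, male 10% fat replicates 1 and 2 and male 44% fat replicate 2, and NZO/HlLtJ female 10% fat replicate 1, female 44% fat replicate 2, male 10% fat replicate 2 and male 44% fat replicate 1. The difference was 1.88 (adjusted p = 0.00058) without C57BL/6J female 44% fat replicate 1, the library at 33.9 CPM. Cyp26a1 was at means of 0.0653 to 0.131 CPM and was not called. Of the 11 retinoid handling genes tested, 1 was higher and 5 lower in CAST/EiJ than in C57BL/6J, with a median log2 difference of -0.13. Of all genes, 29.1% were higher and 29.7% lower in that comparison.

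The steroid hormone and vitamin D genes were scarce. Cyp11a1, the cholesterol side-chain cleavage enzyme of steroid-making tissues, had 21, 14 and 52 counts in C57BL/6J, CAST/EiJ and NZO/HlLtJ. It passed the filter through NZO/HlLtJ alone, where it was highest, so its test of NZO/HlLtJ against CAST/EiJ is not given. The call of that difference was lost without any 1 of 3 NZO/HlLtJ libraries. These were female 10% fat replicate 1, female 44% fat replicate 2 and male 44% fat replicate 1. The call was also lost with the identifier range as a block. Cyp2r1, the main vitamin D 25-hydroxylase, had 91 counts in C57BL/6J, 48 in CAST/EiJ and 16 in NZO/HlLtJ. It passed the filter through C57BL/6J alone, where it was highest, so its test of NZO/HlLtJ against C57BL/6J is not given. The ratio of NZO/HlLtJ to C57BL/6J was 0.164 (exact 95% interval 0.0898 to 0.281, counting error only). Cyp27b1, the 1-alpha-hydroxylase, had 15, 54 and 20 counts and did not pass the filter. Without a filter it was called in CAST/EiJ against C57BL/6J (1.69, edgeR adjusted p = 0.0244).

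Of the drug-metabolizing family 2 genes, Cyp2d22 was the most abundant. Its minimum, median and maximum were 11.8, 14.6 and 17.3 CPM in C57BL/6J, 22.9, 24.9 and 29.3 in CAST/EiJ and 9.56, 11 and 14.7 in NZO/HlLtJ. CAST/EiJ lay above both other strains, which overlapped. The log2 difference was 0.81 ± 0.081 for CAST/EiJ against C57BL/6J (edgeR adjusted p = 9.15e-08) and -1.12 ± 0.082 for NZO/HlLtJ against CAST/EiJ (adjusted p = 1.06e-09).

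Cyp2ab1 had the same shape at a lower level, 0.847 ± 0.285 CPM in CAST/EiJ beside 0.232 ± 0.0954 in C57BL/6J and 0.264 ± 0.119 in NZO/HlLtJ (SD, n = 8), and its CAST/EiJ libraries, 0.526 to 1.25 CPM, overlapped neither strain. Its difference from C57BL/6J was 1.85 ± 0.31 (edgeR adjusted p = 4.44e-05). Cyp2b10, a target of the xenobiotic receptor CAR, was highest in NZO/HlLtJ at 2.71 ± 1.26 CPM beside 0.871 ± 0.482 in C57BL/6J and 1.32 ± 0.590 in CAST/EiJ (SD, n = 8). These ranges overlapped, and NZO/HlLtJ exceeded C57BL/6J by 1.67 ± 0.34 (adjusted p = 0.00124). Cyp2s1, an epithelial P450, was higher in CAST/EiJ, at 3.83 ± 2.02 CPM against 1.93 ± 1.04 in C57BL/6J (SD, n = 8, log2 difference 0.91 ± 0.29, adjusted p = 0.0129). Cyp3a13, a steroid and drug hydroxylase, was at 0.306, 0.439 and 0.612 CPM, and its difference between NZO/HlLtJ and C57BL/6J (1.00, adjusted p = 0.0311) was lost with the identifier range as a block (adjusted p = 0.093) and without any 1 of 8 libraries (adjusted p up to 0.0877). These were C57BL/6J female 10% fat replicate 2, female 44% fat replicate 1, male 10% fat replicate 2 and male 44% fat replicate 1, and replicate 1 of each NZO/HlLtJ group.

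Cyp1b1, the aryl hydrocarbon family member of fibroblasts and vessels, did not pass the test between strains, at 12 ± 2.50, 12.8 ± 2.76 and 13.3 ± 5.34 CPM (SD, n = 8). Its log2 differences of 0.08, 0.12 and 0.03 had adjusted p from 0.701 to 0.9. The receptor Ahr was also not called, at 8.81, 7.69 and 8.26 CPM. The receptor's repressor Ahrr was at 5.15 CPM in C57BL/6J, 1.03 in CAST/EiJ and 1.79 in NZO/HlLtJ, lower in both than in C57BL/6J (log2 difference -2.33, edgeR adjusted p = 1.16e-10, and -1.52, adjusted p = 8.07e-08). Its partner Arnt was lower in CAST/EiJ (-0.24, adjusted p = 1.28e-05). Of the 8 aryl hydrocarbon receptor targets, 3 were higher and 3 lower in each comparison with C57BL/6J. Of all genes, 58.8% were called in CAST/EiJ and 35.5% in NZO/HlLtJ against C57BL/6J.

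Cyp20a1, an orphan P450 without a settled substrate, at chr1:60343323-60388060, was low in CAST/EiJ. Its minimum, median and maximum were 7.83, 9.16 and 11 CPM in C57BL/6J, 3.73, 4.60 and 5.87 in CAST/EiJ and 6.85, 8.43 and 9.07 in NZO/HlLtJ. Only CAST/EiJ stood apart among the 3 strains, with a log2 difference of -0.96 ± 0.086 from C57BL/6J (edgeR adjusted p = 1.34e-08).

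The enzymes that serve the P450 family differed between strains as well. Por, the NADPH-cytochrome P450 reductase, was at 40.5 ± 3.53 CPM in C57BL/6J, 75.1 ± 10.5 in CAST/EiJ and 38.4 ± 3.27 in NZO/HlLtJ (SD, n = 8). Cyb5a, the cytochrome b5 that aids many microsomal P450 reactions, was at 26.6 ± 1.65, 51.3 ± 3.02 and 25.2 ± 1.55 CPM. Both were higher in CAST/EiJ than in C57BL/6J (log2 difference 0.89, edgeR adjusted p = 3.54e-11, and 0.94, adjusted p = 1.47e-12).

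Of the mitochondrial partners, ferredoxin Fdx1 was lower in CAST/EiJ than in C57BL/6J (-0.38, edgeR adjusted p = 2.16e-06), as was its reductase Fdxr (-0.24, adjusted p = 0.00991). The other mitochondrial ferredoxin, Fdx1l, named here after its value was seen, was higher (0.24, adjusted p = 0.00711). Of all 10 redox partners, 5 were higher and 3 lower in that comparison, with a median of 0.07, where 29.1% of all genes were higher and 29.7% lower. Of the 10 heme supply genes, 6 were higher and 3 lower, with a median of 0.28. That list also holds Hmox1, which degrades heme and was higher (0.85, adjusted p = 1.19e-06), a gene named after its value was seen. Alas1, the first enzyme of heme synthesis, was higher (0.41, adjusted p = 0.00467), and Uros, a later one, was lower (-1.08, adjusted p = 2.15e-12). Of the 19 P450 regulators tested, 4 were higher and 4 lower.

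Of the 17 eicosanoid enzymes outside the P450 symbols, 3 were higher and 10 lower in CAST/EiJ against C57BL/6J, beside 29.1% and 29.7% of all genes. Their median was -0.50, beside a median over all genes near 0. Ephx2, the hydrolase that removes fatty acid epoxides, spanned 196 to 283 CPM in C57BL/6J, 57.5 to 75.1 in CAST/EiJ and 193 to 308 in NZO/HlLtJ. Its log2 difference was -1.84 for CAST/EiJ against C57BL/6J (edgeR adjusted p = 1.10e-14) and -0.13 for NZO/HlLtJ (adjusted p = 0.087). Cyp2j6 and Cyp2j9 were lower in the same strain. The microsomal hydrolase Ephx1 was lower in NZO/HlLtJ (-0.38, adjusted p = 0.000141), prostacyclin synthase Ptgis was higher there (0.57, adjusted p = 1.29e-05) and thromboxane synthase Tbxas1 was lower in CAST/EiJ (-0.66, adjusted p = 2.30e-05). Ptgis and Tbxas1 are P450 enzymes by structure but do not carry Cyp symbols.

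The second comparison was diet. None of the 30 P450 genes passed the edgeR test for 44% against 10% fat in any strain or over the strains. All genes were called at 0.0407% in C57BL/6J, 0% in CAST/EiJ, 0% in NZO/HlLtJ and 0.157% over the strains. At an unadjusted p under 0.05 there were 3, 4, 1 and 4 P450 genes, beside 5.62%, 6.61%, 7.17% and 8.81% of all genes. DESeq2 called 1, Cyp4b1 in CAST/EiJ, and limma-voom called none. In C57BL/6J, DESeq2 gave no adjusted p for Cyp51, Cyp2e1 and Cyp2f2, so its lack of a call does not cover them there. The difference of the diet effect between strains was called for 0 P450 genes in all 3 pairs, beside 0%, 0.00581% and 0% of all genes. At an unadjusted p under 0.05 there were 3, 0 and 1, beside 6.53%, 4.75% and 4.64% of all genes.

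Cyp4b1 in CAST/EiJ had the smallest p of the 30 P450 genes in that comparison. On 10% fat the females had 19.5 and 21.2 CPM and the males 16.2 and 17.5. On 44% fat the females had 29.7 and 23.9 CPM and the males 23.5 and 24.2. All 4 libraries on 44% fat lay above all 4 on 10% fat. In CAST/EiJ the diets did not overlap for 3 of the 30 P450 genes, beside 2.78% of all genes. The means were 25.3 ± 2.94 and 18.6 ± 2.21 CPM (SD, n = 4). The log2 difference was 0.45 ± 0.090, with an edgeR p of 8.6e-05 and an adjusted p = 0.165. DESeq2 gave 0.44 with an adjusted p of 0.012. With the identifier range as a block, edgeR gave 0.47 with an adjusted p of 0.229.

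In the other strains Cyp4b1 was at 20 and 20.3 CPM on 10% and 44% fat in C57BL/6J, and at 17.5 and 18.2 in NZO/HlLtJ. The diet effect of CAST/EiJ exceeded that of C57BL/6J by 0.43 ± 0.13 (edgeR adjusted p = 0.681), which did not pass the test. The 8 endothelial markers, a cell type in which Cyp4b1 is found, summed in CAST/EiJ to 770 to 847 CPM in females and 790 to 823 in males on 10% fat, and to 902 to 1179 and 765 to 932 on 44% fat. The part of endothelial cells in this difference was not tested.

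Cyp26b1 also had separate diets in CAST/EiJ. On 10% fat its CPM were 8.20 and 8.58 in females and 7.31 and 6.59 in males, and on 44% fat 29.1 and 13.2 in females and 24.7 and 13 in males. Every library on 44% fat was higher, and the log2 difference of 1.38 ± 0.57 did not pass (edgeR adjusted p = 0.707). With the identifier range as a block it was 1.89 (edgeR adjusted p = 0.371). In C57BL/6J the libraries on 44% fat, 33.9, 3.22, 12.7 and 4.79 CPM, overlapped those on 10% fat, 5.47, 3.19, 4.78 and 5.31 (1.45 ± 0.60, adjusted p = 0.831). The libraries at 29.1, 24.7, 33.9 and 12.7 CPM all came from the first identifier range. Within that range the differences were 1.79 in CAST/EiJ (adjusted p = 0.292) and 2.08 in C57BL/6J (adjusted p = 0.775). NZO/HlLtJ showed no such step, at 30.0, 25.7, 7.95 and 18.7 CPM on 10% fat and 14.4, 22.4, 17.2 and 14.7 on 44% fat.

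Cyp51 had the smallest p of the P450 genes over the strains, and its level was slightly lower on 44% fat without passing the test (-0.18 ± 0.048, edgeR adjusted p = 0.216). Its means on 10% and 44% fat were 13.1 and 12.6 CPM in C57BL/6J, 6.81 ± 0.907 and 5.71 ± 0.662 in CAST/EiJ and 10.1 ± 0.798 and 8.70 ± 0.379 in NZO/HlLtJ (SD, n = 4). In NZO/HlLtJ the libraries were at 10.0, 11, 9.10 and 10.4 CPM on 10% fat and 8.5, 8.85, 9.15 and 8.30 on 44% fat, overlapping by 1 library. None of the 17 sterol pathway genes was called for diet over the strains, beside 0.157% of all genes, and their median was -0.14.

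Other genes had diets that did not overlap within a strain, without passing the test. Cyp7b1 in CAST/EiJ was at 0.352, 0.443, 0.401 and 0.487 CPM on 10% fat and 0.749, 0.593, 0.516 and 0.537 on 44% fat (0.50 ± 0.32, edgeR adjusted p = 0.847). In NZO/HlLtJ, Cyp39a1 spanned 4.62 to 5.4 CPM on 10% fat and 5.57 to 5.92 on 44% fat (0.18 ± 0.13, adjusted p = 0.8), and Cyp2u1 spanned 20.3 to 21.8 and 17.3 to 20.1 (-0.14 ± 0.081, adjusted p = 0.735). These were the 2 of 30 in NZO/HlLtJ, beside 3.34% of all genes.

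Cyp2e1, the ethanol-inducible P450 that adipocytes and hepatocytes hold, had the smallest p of the P450 genes in C57BL/6J. Its CPM on 10% fat were 8.36 and 12 in females and 22.4 and 8.93 in males, and on 44% fat 1.83 and 4.77 in females and 6.93 and 5.53 in males. The diets did not overlap for this 1 of the 30 genes, beside 4.11% of all genes, and the difference of -1.47 ± 0.51 did not pass (edgeR adjusted p = 0.753). The 8 white adipocyte markers summed in C57BL/6J to 73.6, 77.5, 136 and 48.7 CPM on 10% fat and to 18.9, 90.9, 55.2 and 94.6 on 44% fat, in the same order of libraries, so the diets overlapped in that sum. The library at 22.4 CPM had the adipocyte genes Cfd and Adipoq at 28.6 and 13.5 CPM, and the library at 1.83 had them at 3.45 and 1.72. All 8 markers were listed, and summed to 15.5 to 111 CPM in CAST/EiJ and 17 to 114 in NZO/HlLtJ. The part of adipose tissue in this difference was not tested.

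**Figure D4:**
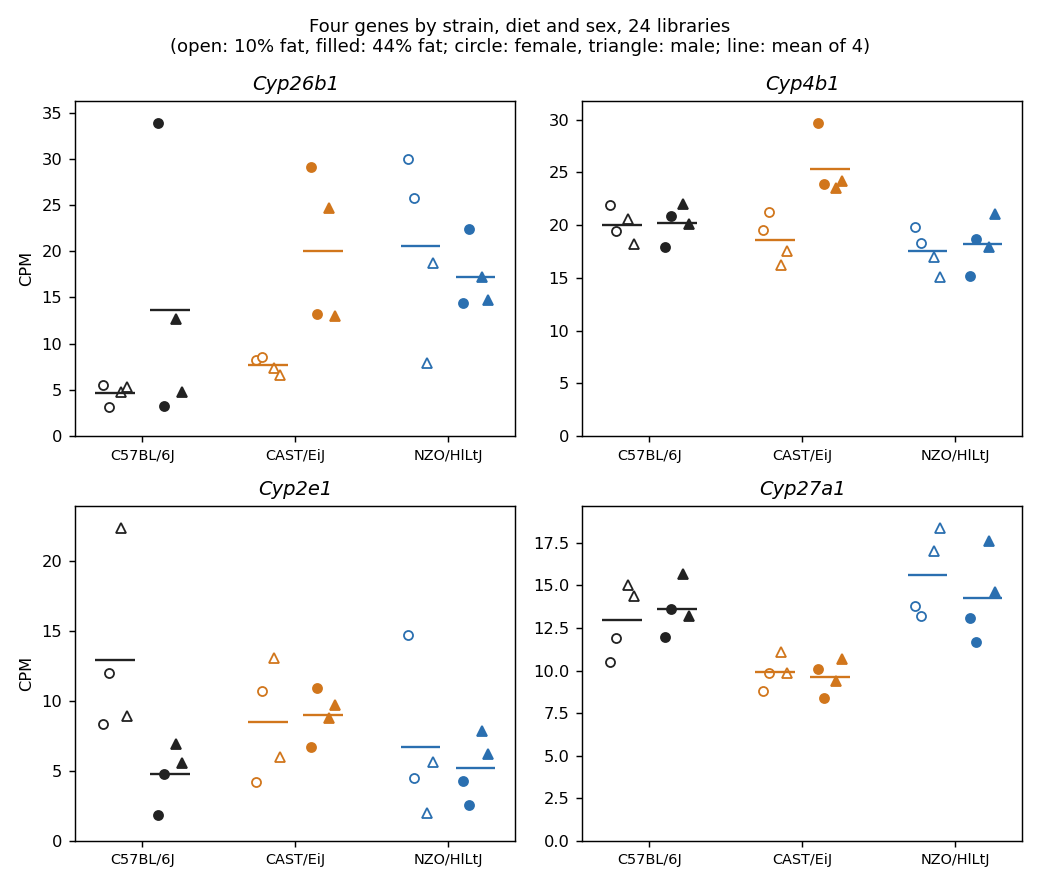
CPM of Cyp26b1, Cyp4b1, Cyp2e1 and Cyp27a1 in each library by strain, diet (open 10% fat, filled 44%) and sex (circles female, triangles male), with the mean of 4 libraries as a line. The CAST/EiJ libraries on 44% fat lie above those on 10% fat for Cyp4b1 and Cyp26b1, and the Cyp27a1 males of NZO/HlLtJ lie above its females.

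The third comparison was sex. Over the strains, 1 of the 30 P450 genes was called, or 3.33% beside 0.372% of all genes (0.198% higher in males). An unadjusted p under 0.05 was reached by 2, beside 8.95% of all genes. The called gene was Cyp27a1, which had a minimum, median and maximum of 8.37, 11.8 and 13.8 CPM in the 12 female libraries and 9.36, 14.5 and 18.4 in the 12 male libraries. The sexes overlapped when strains were pooled. Males were higher by 0.27 ± 0.053 on the log2 scale (edgeR adjusted p = 0.0259).

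Within strains, the Cyp27a1 means of females and males were 12 ± 1.28 and 14.6 ± 1.04 CPM in C57BL/6J, 9.28 ± 0.819 and 10.3 ± 0.796 in CAST/EiJ and 12.9 ± 0.867 and 16.9 ± 1.64 in NZO/HlLtJ (SD, n = 4). In NZO/HlLtJ the females were at 13.8, 13.2, 13.1 and 11.7 CPM and the males at 17, 18.4, 17.6 and 14.6, with no overlap, which held for 1 of the 30 P450 genes beside 3.56% of all genes. The call over the strains was lost without any 1 of 11 of the 24 libraries (adjusted p 0.0154 to 0.0746 over all 24), and within NZO/HlLtJ it did not pass in edgeR (0.39, adjusted p = 0.173). The 11 libraries are replicate 1 of each C57BL/6J group, replicate 1 of CAST/EiJ female and male 10% fat, replicate 2 of CAST/EiJ female and male 44% fat, and replicate 2 of NZO/HlLtJ female 10% fat, female 44% fat and male 10% fat.

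Within a strain no P450 gene passed the sex test, beside 0.145%, 0.0872% and 0.134% of all genes in C57BL/6J, CAST/EiJ and NZO/HlLtJ, and 1, 4 and 1 had an unadjusted p under 0.05, beside 6.27%, 8.55% and 7.03% of all genes. DESeq2 called 1, Cyp27a1 in NZO/HlLtJ (0.39, adjusted p = 0.0447), and limma-voom called none. Cyp2s1 in CAST/EiJ was at 7.91, 4.38, 5.45 and 3.15 CPM in males and 2.40, 2.85, 1.80 and 2.70 in females, with no overlap (1.08 ± 0.39, edgeR adjusted p = 0.487). The males at 7.91 and 4.38 and the female at 2.85 CPM are among the 7 libraries that held airway genes. The part of airway tissue in this Cyp2s1 difference was not tested. Cyp2s1 was the 1 gene of 30 whose sexes did not overlap in CAST/EiJ, beside 3.63% of all genes, and C57BL/6J had 0, beside 4.66%. The difference of the sex effect between strains was called for 0 P450 genes in all 3 pairs, beside 0% of all genes in each. At an unadjusted p under 0.05 there were 1, 0 and 1, beside 5.95%, 4.63% and 8.48% of all genes.

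Cyp2f2, the naphthalene-metabolizing P450 of airway club cells, split the libraries across groups. It was at 5.59 to 35.3 CPM in 7 libraries and at 0 to 0.845 in the other 17. The 7 were C57BL/6J female 44% fat replicate 2 at 16.6, male 10% fat replicate 1 at 35.3 and male 44% fat replicate 2 at 9.36, CAST/EiJ female 10% fat replicate 2 at 10.2 and male 10% fat replicates 1 and 2 at 5.59 and 20, and NZO/HlLtJ female 10% fat replicate 2 at 14.4 CPM. All 3 strains, both sexes and both diets were among them, and no strain comparison called the gene.

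Airway secretory genes moved with Cyp2f2 in the same 7 libraries. Muc5b, a secreted mucin, was at 1.25 to 13.8 CPM in the 7 and at 0 to 0.154 in the 17. Bpifb1 was at 0.891 to 13.3 against 0 to 0.164, and Scgb3a1, a secretoglobin, at 1.20 to 8.85 against 0 to 0.245. These 3 were chosen after their values were seen. Of the 7 lung epithelium markers only Sftpa1 was listed, at 0 to 3.47 CPM in the 7 libraries and 0 to 0.136 in the 17.

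The strain counts were recomputed on the 17 libraries with Muc5b under 1 CPM, with strain, sex and diet as additive terms, a choice made after seeing the data. They were 16 called in CAST/EiJ against C57BL/6J, 10 in NZO/HlLtJ against C57BL/6J and 19 in NZO/HlLtJ against CAST/EiJ, where the same additive terms on all 24 libraries gave 16, 12 and 20. The sex call of Cyp27a1 was 0.33 with an adjusted p of 0.0675 in those 17 libraries.

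**Figure D5:**
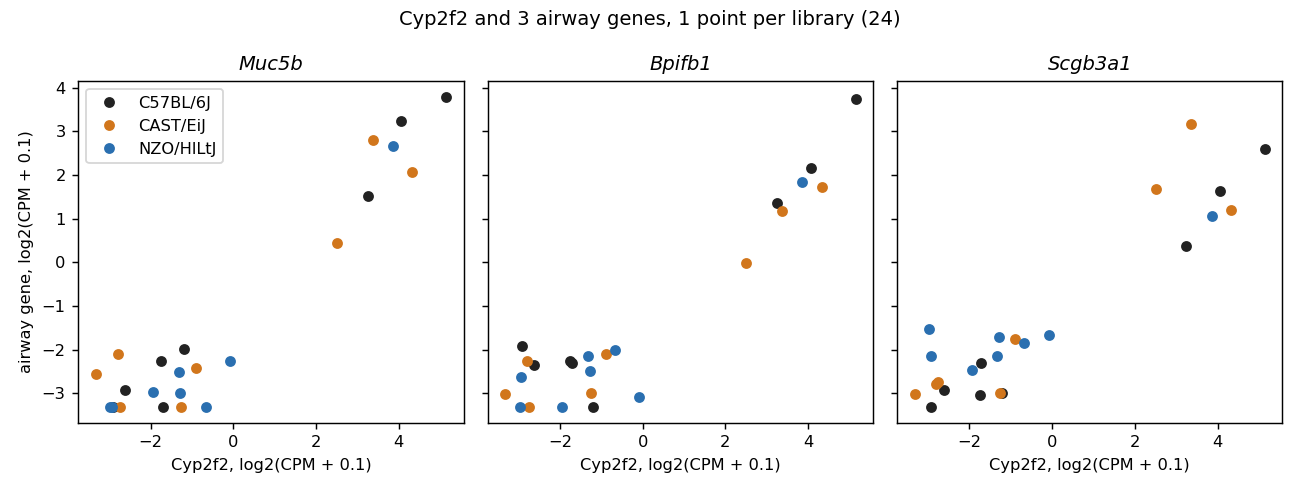
Cyp2f2 against Muc5b, Bpifb1 and Scgb3a1 in each library, as CPM with a small constant added on log2 axes, coloured by strain. The 7 libraries with Cyp2f2 at 5.59 to 35.3 CPM lie apart from the other 17 in all 3 panels.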

How the data were processed

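Heart poly(A) RNA-seq was taken from a table of expected counts per gene that the authors deposited, with 19.3% of values not whole at a tolerance of 1e-06. These were rounded to whole numbers. The build GRCm38 and the tool DESeq2 are named per the submitters' processing notes. The aligner, the counting tool, the use of strand and whether 1 reference served all strains were not given in the sources used here, so strain differences and differences in read alignment cannot be told apart. Totals were 30205073 to 52254058 counts per library and TMM factors 0.954 to 1.06.

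The main test was edgeR 4.0.16 in R 4.3.3, a quasi-likelihood fit of 12 groups of strain, sex and diet after filterByExpr (minimum count 10), with 17 comparisons and Benjamini-Hochberg adjustment over 17203 genes at 0.05. The biological coefficient of variation was 0.127. CPM values carry the TMM factors. Lengths and overlaps came from GENCODE M21, promoters from RefSeq, and gene positions from the deposited annotation, identical to GENCODE for 23 of 34 genes. Alternatives were DESeq2 1.42.0, limma 3.58.1 (voom), other filters and factors, the identifier range in the titles, only the strains compared, leaving out each library and, added later, additive terms. The model was tested on simulated data.

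Any of the 34 genes could be named. Those at 1 CPM or called are described by role, with full statistics for the 6 of smallest adjusted p per direction. Members and lists were chosen with earlier results of these data known.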

Additional observations from a re-analysis of the deposited data

Results flagged for a closer look

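Of 171 groups of 4 or 8 libraries, 14 held a library far from the others, where chance flags about 5%. Cyp26b1 was at 33.9 CPM in C57BL/6J female 44% fat replicate 1, with 12.7 the next of that strain. Cyp2f2 was at 35.3 CPM in C57BL/6J male 10% fat replicate 1, beside 16.6 as the next of the strain and 0.334 as the next on 10% fat, and at 14.4 CPM in NZO/HlLtJ female 10% fat replicate 2, beside 0.845 and 0.531. That C57BL/6J library also led its groups for Cyp2j6, at 7.40 CPM beside 5.62, and Cyp20a1, at 11 beside 9.21. Its other replicate was high for Cyp39a1, at 9.88 CPM beside 8.04.

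Cyp4b1 in CAST/EiJ female 44% fat replicate 1 was at 29.7 CPM, beside 24.2 for the next on that diet. Cyp4v3 was at 6.39 CPM in CAST/EiJ male 10% fat replicate 1, beside 4.12. Cyp2b10 was at 2.44 CPM in CAST/EiJ male 44% fat replicate 2, beside 1.13, and Cyp2e1 was at 14.7 CPM in NZO/HlLtJ female 10% fat replicate 1, beside 7.84. On the low side, Cyp2j6 was at 2.90 CPM in CAST/EiJ female 44% fat replicate 2, beside 3.30, and Cyp2j9 was at 0.952 CPM in NZO/HlLtJ male 44% fat replicate 2, beside 1.45.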

How the results depend on the processing

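None of the 76 single results reversed under any alternative. A reversal was a change of sign in a result called by the main fit or by the alternative. A change of sign in a result called by neither was not counted. Of the 48 strain calls, 41 were called without each of the 24 libraries in turn. With the identifier range as a block 5 were lost (Cyp2j9, Cyp3a13 and Cyp4b1 in NZO/HlLtJ against C57BL/6J, Cyp2b10 and Cyp11a1 against CAST/EiJ), and with only the strains compared 1. DESeq2, limma-voom, RLE factors and either other filter lost none that they tested. Leaving out each library gave 16 to 19 calls for CAST/EiJ against C57BL/6J, beside 15 with all libraries, since the filter then also let in Cyp4f15, called in 23 of these fits, and Cyp27b1, called in 20. It gave 10 to 14 for NZO/HlLtJ against C57BL/6J, 19 to 21 for NZO/HlLtJ against CAST/EiJ and 0 to 1 for sex over strains. At a mean of at least 1 CPM, which tests fewer genes, NZO/HlLtJ against CAST/EiJ had 13 calls. DESeq2 called 1 gene for diet in CAST/EiJ and 1 for sex in NZO/HlLtJ. In the first identifier range alone, with 1 library per group, Cyp2s1 was higher in males by 1.90 in C57BL/6J and 1.67 in CAST/EiJ (log2 difference). Its highest values there, 3.88 CPM in C57BL/6J and 7.91 in CAST/EiJ, were in the male 10% fat libraries, which held airway genes. On the 17 libraries with Muc5b under 1 CPM, sex over strains had 0 calls. For the other changes the cause was not tested. That range holds no NZO/HlLtJ library, so comparisons with this strain were not run in it.

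Cyp2r1 passed the filter through C57BL/6J alone. In CAST/EiJ against C57BL/6J its call was lost without C57BL/6J female 10% fat replicate 1. That call was also lost without any 1 of CAST/EiJ female 10% fat, male 10% fat and male 44% fat replicate 1. In NZO/HlLtJ against CAST/EiJ its call was lost without CAST/EiJ female 10% fat replicate 2. The block moved Cyp2b10 in that comparison to 0.81 (adjusted p = 0.0728). No paired analysis was possible because the labels give no replicate numbers: those used here follow the order of accession and pair nothing. Low counts limit Cyp4a10, Cyp4f14, Cyp11a1 and Cyp2r1.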
